A study of Mus musculus with 6 samples.

Results

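The subject is the response of mouse dendritic cells to a control adenovirus, AdOVA, in the absence of added TNFa. It was read from 1 array of cells given AdOVA and 1 array of cells left untreated, which are 2 of the 6 arrays of the series and were chosen by their titles, and over all 22626 probe sets that are not array controls. Dendritic cells (DC) were grown from hind-leg bone marrow of a CAR-transgenic mouse, a female aged 13 weeks. The labels do not spell out CAR, and every group carries that transgene. Marrow progenitors were expanded for 7 days and differentiated for a further 7 days with GM-CSF at 250 U/ml. The AdOVA cells then received the virus at 1500 particles per cell during 2 h and were kept in culture for 18 h more, while the untreated cells received neither virus nor TNFa. The TNFa and AdOVA+TNFa groups, used here as a separate pair, had in addition TNFa at 50 ng/ml for 4 h. The other 2 groups received the adenovirus AdIkBa-SR, with or without TNFa. The labels name no sham-transduced group, so AdOVA itself, the handling during transduction and the added hours of culture cannot be told apart. Nor do they say whether the groups were separate cultures. Each group has 1 array of 8 ug total RNA, so no difference has a replicate check and no p-value is given and precision is limited by the number of arrays.

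DC sense viral nucleic acids and capsids through Toll-like receptors and cytosolic sensors. These sensors switch on IRF transcription factors, which drive interferon beta, and NF-kB, which drives inflammatory cytokines and chemokines. Secreted interferon acts on receptors that lead to interferon-stimulated response elements (ISRE) in DNA, which turn on antiviral effector genes. Maturing DC lower antigen uptake, raise costimulatory molecules and shift from oxidative metabolism towards glycolysis.

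The promoters of 6 genes with much higher signals on the AdOVA array are shown because they hold the elements through which these pathways are known to act. They are RefSeq sequences of the GRCm38.p6 assembly, written 5′ to 3′ along the gene and ending at the last base before the annotated start of transcription. Capitals mark matches to the ISRE letters (GAAA, any 2 bases, GAAA) in Ifit1, Gbp2 and Rsad2, to the NF-kB letters (GGG, any 3 bases, TTCC) in Il6 and Cxcl1, and to both in Cxcl10. Either strand was searched, so that a reverse match reads as the complement. The stretch shown is 250 bases for Cxcl10, 140 for Ifit1 and Rsad2 and 120 for the other genes. Matches outside these stretches are not marked, and Gbp2 had an NF-kB match outside its stretch.
Cxcl10, chr5:92348890-92349139, minus strand: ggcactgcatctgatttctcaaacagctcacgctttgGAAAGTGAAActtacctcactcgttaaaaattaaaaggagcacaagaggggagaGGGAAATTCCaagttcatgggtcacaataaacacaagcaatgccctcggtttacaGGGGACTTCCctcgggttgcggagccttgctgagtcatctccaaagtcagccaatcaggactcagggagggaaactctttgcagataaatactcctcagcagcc
Ifit1, chr19:34640749-34640888, plus strand: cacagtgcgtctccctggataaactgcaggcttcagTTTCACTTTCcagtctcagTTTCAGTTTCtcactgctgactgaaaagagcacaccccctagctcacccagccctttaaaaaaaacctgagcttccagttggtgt
Gbp2, chr3:142620543-142620662, plus strand: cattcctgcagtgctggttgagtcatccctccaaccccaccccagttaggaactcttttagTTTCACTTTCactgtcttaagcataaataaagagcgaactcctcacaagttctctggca
Rsad2, chr12:26456453-26456592, minus strand: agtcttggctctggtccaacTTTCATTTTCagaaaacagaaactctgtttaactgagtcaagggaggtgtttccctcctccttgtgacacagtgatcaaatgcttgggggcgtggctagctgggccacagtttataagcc
Il6, chr5:30012994-30013113, plus strand: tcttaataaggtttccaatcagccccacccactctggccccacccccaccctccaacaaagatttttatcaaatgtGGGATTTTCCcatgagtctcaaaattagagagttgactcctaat
Cxcl1, chr5:90891125-90891244, plus strand: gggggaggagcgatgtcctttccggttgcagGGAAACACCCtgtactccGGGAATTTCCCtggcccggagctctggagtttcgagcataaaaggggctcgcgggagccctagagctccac
In Cxcl10 the ISRE match lies 213 to 204 bases before the start and the NF-kB matches lie 159 to 150 and 104 to 95 bases before it. The 2 ISRE matches in the stretch shown for Ifit1 lie 104 to 95 and 85 to 76 bases before its start. The NF-kB match in the stretch shown for Il6 lies 44 to 35 bases before its start. In Cxcl1 the matches at 71 to 62 and 70 to 61 bases overlap on opposite strands, and a further one lies at 89 to 80. A match is a description of the letters and not evidence of binding.

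A gene was read from the brightest of its probe sets, signals under a floor of 53.5 were set to that floor, and a gene or probe set was called higher or lower at a 2-fold difference. The floor is the 40th percentile of all signals. Where the dimmer array lay under the floor, the fold is a bound and is written "at least". Of the 22626 probe sets, 14906 were measured, meaning above the floor on at least 2 of the 6 arrays, and both arrays of the pair were above it for 12361 of these. With AdOVA 658 probe sets were called higher (4.41% of those measured) and 665 lower (4.46%), and all measured probe sets together had a median log2 difference of 0.01 (interquartile range -0.33 to 0.37). Scaling the arrays to equal medians moved the share of calls that were higher from 49.7% to 37.2%. TNFa alone, compared with the same untreated array, gave 109 higher (0.731%) and 157 lower (1.05%). At the level of genes, 405 of 8934 measured genes were called higher (4.53%) and 369 lower (4.13%), with a median log2 difference of 0.04. The untreated and AdOVA arrays had median signals of 77.4 and 82.6, were hybridized on the same recorded date and were washed with the same settings. Their ratios of 3′ to 5′ signal were 1.58 and 1.84 for Actb and 0.821 and 0.880 for Gapdh. The 18S ribosomal RNA signal at its 5′ end was 120.3 untreated, 233.6 with AdOVA, 176.2 with TNFa and 2601.1 with AdOVA+TNFa. Whether these technical measures had a part in any difference below was not tested.

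**Figure D1:**
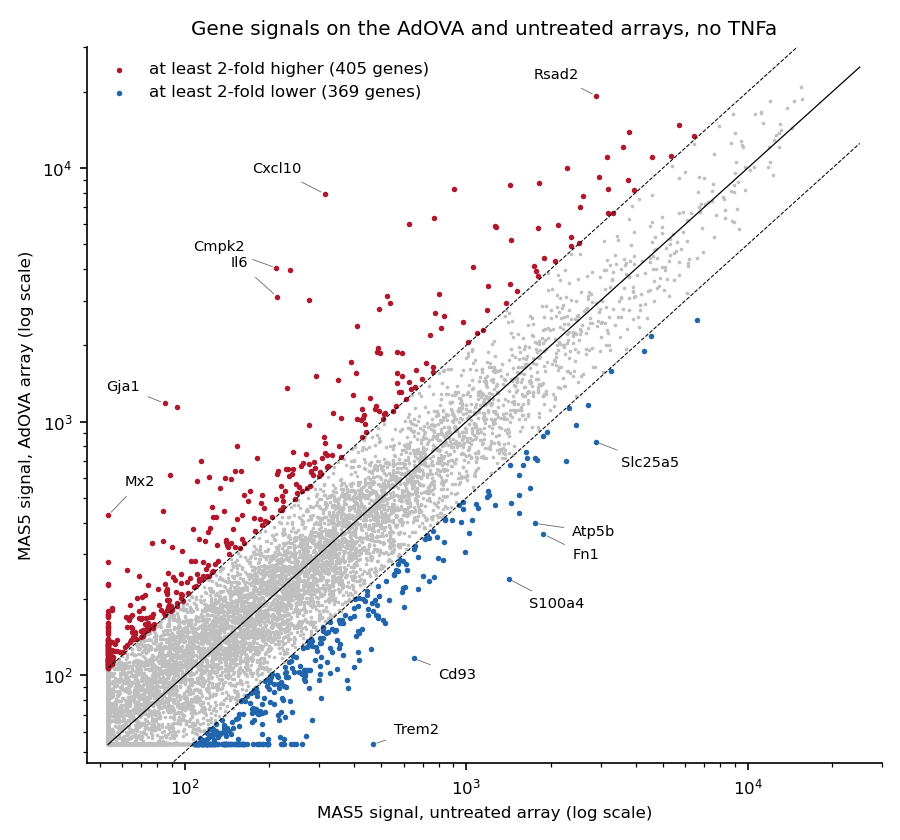
MAS5 signal of each of 8934 genes on the untreated array (x axis, log scale) and the AdOVA array (y axis, log scale), with signals under the floor set to it, a solid line of equality and dashed lines at 2-fold. The 405 genes called higher are red and the 369 called lower are blue, with Cxcl10 at 314 and 7909 and Trem2 at 466 and under the floor.

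Among the largest differences were those of several interferon-induced and inflammatory genes. In RNA from a whole culture, a change in the number of cells of a type and a change in RNA per cell cannot be told apart. Cxcl10, a chemokine that draws activated T cells, had a signal of 314 untreated and 7909 with AdOVA, a 25.2-fold difference. On the TNFa and AdOVA+TNFa arrays it read 330 and 7073, and on the AdIkBa-SR arrays 774 without TNFa and 739 with it. Both AdOVA arrays were thus far above the other 4. Cmpk2, an interferon-induced nucleotide kinase of mitochondria, stood at 212 and 4036 (19.1-fold) on its brightest probe set and at 148 and 945 on its other one. Oasl1, of the oligoadenylate synthetase family, stood at 237 and 3971 (16.8-fold). Apart from the 2 AdOVA arrays, these genes were highest on the AdIkBa-SR arrays, where Oasl1 read 782 and 870 and Cmpk2 558 and 377. Both of those arrays, like the AdOVA+TNFa array, had a recorded hybridization entry that differed from that of the untreated array. The one without TNFa was washed with 0 cycles and stained first for 420 s, against 10 and 4 cycles and 600 s on the rest, and the part of these settings was not tested.

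Of 50 measured genes on a list of interferon-induced antiviral effectors, 25 were higher (50%), 1 was lower (2%) and 24 were within 2-fold. The median log2 difference of the list was 0.92, beside 0.04 over all genes. Over all genes 4.53% were higher and 4.13% lower, and the counts of this and later lists are to be read beside these shares. The IFIT genes, whose products bind foreign RNA, stood together: Ifit1 went from 903 to 8235, Ifit2 from 624 to 6032 and Ifit3 from 769 to 6328, which are differences of 9.12-fold, 9.66-fold and 8.23-fold. The dynamin-like antiviral GTPase gene Mx1 stood at 88.7 and 617. Its relative Mx2 was under the floor untreated and at 428 with AdOVA, at least 8-fold higher. Rsad2, encoding the radical-SAM enzyme viperin, was already bright untreated at 2889 and reached 19264. Isg20, an RNA exonuclease, stood at 490 and 2775.

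Other effectors differed less or not at all. The ubiquitin ligase gene Trim21, an intracellular antibody receptor, had 336 and 1078, and Trim30a 1764 and 3943. Among the PARP genes, Parp14 stood at 741 and 2203 and Parp12 at 568 and 1550, whereas Parp9 stood at 489 and 829. The oligoadenylate synthetases were uneven, with Oas1b at 112 and 345, Oas1a at 2125 and 3796, Oas2 at 453 and 597 and Oas3 at 909 and 964. The membrane proteins that block viral entry were among the least different, with Ifitm3 at 9086 and 10545, Ifitm1 at 5794 and 4812 and Ifitm2 at 1917 and 1281. Eif2ak2, the RNA-activated kinase PKR, stood at 156 and 199. The only member called lower was Sp110, a nuclear body gene, at 179 and 71.5, and its other probe sets stood at under the floor and 81.5, and at 82.2 and 97.3.

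Of the 10 measured interferon-inducible GTPases, which attack membranes around intracellular pathogens, 9 were higher and Gbp8 was within 2-fold at 139 and 190. The median log2 difference of the 10 was 1.95. Among guanylate-binding proteins, Gbp2 had signals of 1425 and 8536 (5.99-fold), Gbp3 153 and 799 (5.22-fold), Gbp7 803 and 3200 and Gbp6 496 and 1867. Among the immunity-related GTPases, Iigp1 stood at 159 and 638, Igtp at 566 and 1878 and Irgm2 at 159 and 428. Ifi47 (487 and 1960) and Irgm1 (474 and 1127) belong to this list and to the list of antiviral effectors. For the ubiquitin-like modifier ISG15, the activating enzyme gene Uba7 (410 and 1020), the ligase gene Trim25 (1427 and 3481) and the deconjugase gene Usp18 (1735 and 4102) were higher. The conjugating enzyme gene Ube2l6 stood at 167 and 173.

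Ifnb1, the gene of interferon beta, stood at 62.4 untreated and 260 with AdOVA, a 4.17-fold difference from a signal close to the floor, and at under the floor and 153 in the pair with TNFa. Of 23 measured genes for interferons, their receptors, IRFs, STATs and JAKs, 3 were higher (13.0%, beside 4.53% of all genes) and 1 lower. The others called higher were Stat2, a transcription factor of interferon signalling, at 264 and 687, and Irf1 at 436 and 979. Irf7, which amplifies the interferon response, was 2784 and 3184 without TNFa and 2420 and 5589 with it. Irf9 stood at 209 and 343. The receptor gene Ifngr1 was lower, at 564 and 262. Among 14 nucleic-acid sensors and adaptors 2 were higher (14.3%). Ifih1, the sensor of long double-stranded RNA, stood at 589 and 1867 and Tlr3, which senses it in endosomes, at 102 and 233. The other 12, among them Tlr7, Tlr8, Myd88 and Mavs, were within 2-fold.

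**Figure D2:**
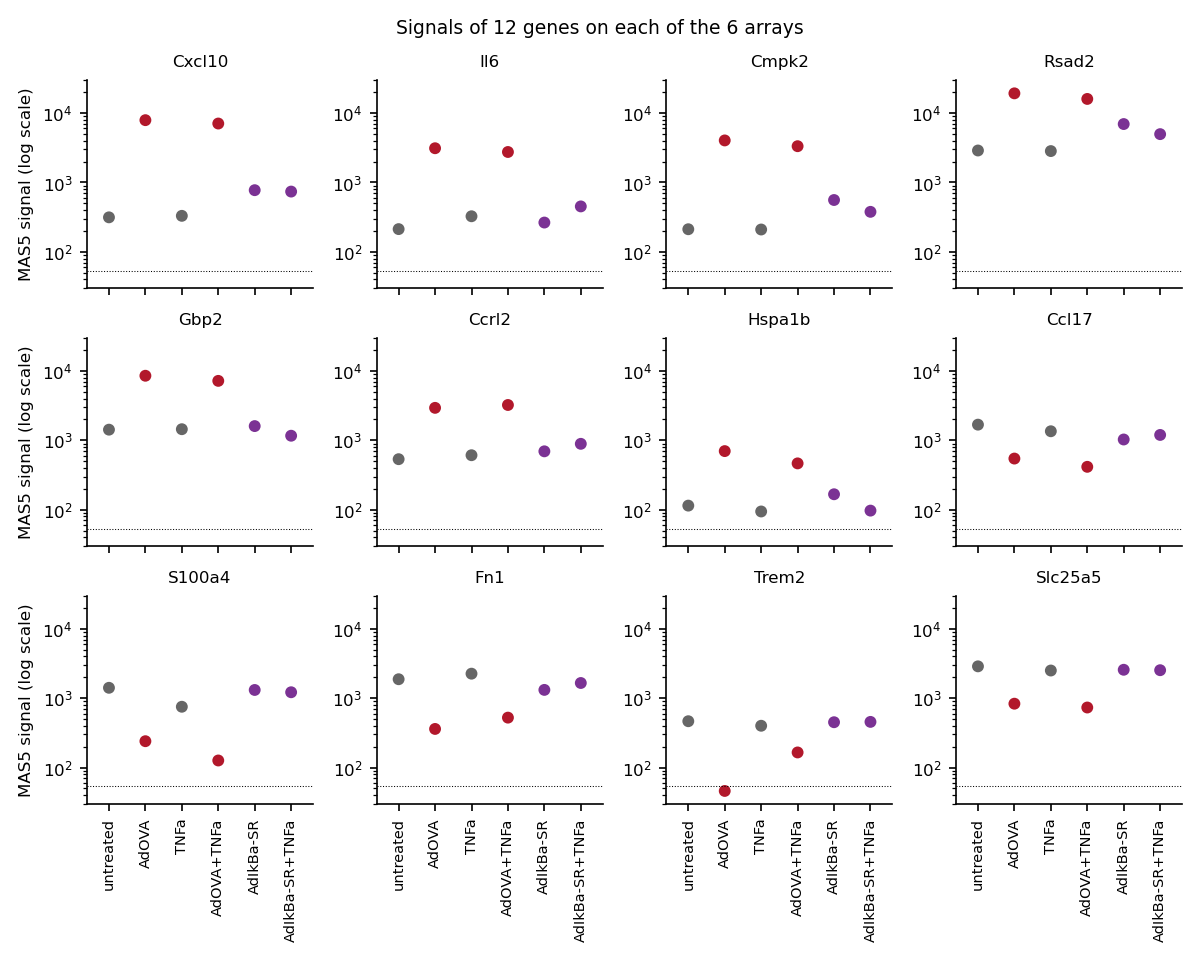
MAS5 signal (log scale) of 12 genes on each of the 6 arrays, 1 point per array, with the floor of 53.5 as a dotted line, grey for no virus, red for AdOVA and purple for AdIkBa-SR. Both red points are above both grey points for Cxcl10 (7909 and 7073 against 314 and 330) and below them for S100a4 (240 and 127 against 1414 and 753).

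Chemokine genes were called in both directions. Of 11 measured CXC chemokines 5 were higher and 1 lower, and of 11 CC chemokines 3 were higher and 2 lower. Cxcl1, a neutrophil attractant, stood at 276 and 3011 (10.9-fold). Cxcl11, a ligand of the same receptor as Cxcl10, stood at 94.0 and 1138 on its brightest probe set (12.1-fold) and at under the floor and 79.0 on the other. Cxcl2 stood at 2965 and 9232. Cxcl13, a B-cell attractant, had 87.5 and 252 on its brighter probe set and 53.8 and 63.9 on the other. Attractants of monocytes and macrophages followed, with Ccl4 at 525 and 3126, Ccl3 at 2536 and 7041 and Ccl7 at 405 and 1550. Ccl5 (12034 and 18334) and Ccl2 (5977 and 9689) were bright on both arrays and within 2-fold. Ccl17 and Ccl22, both ligands of CCR4, had 1683 and 546, and 1542 and 615, which is 3.08-fold and 2.51-fold lower. The platelet chemokine gene Ppbp was also lower, at 347 and 106. Of 11 chemokine receptors, Ccrl2, an atypical receptor, stood at 535 and 2941 and Ccr7, which guides DC to lymph nodes, at 195 and 402.

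Several inflammatory cytokine genes were higher, and none of 22 measured interleukins and growth factors was lower. The 6 called higher were Il6 (213 and 3114, 14.7-fold), Il1a (1275 and 5839), Tnf (139 and 598), Il1b (3788 and 13872), Inhba (3167 and 11098) and Il12a (426 and 1120). Inhba encodes the activin A subunit and Il12a the p35 subunit of interleukin 12. The gene of the other interleukin 12 subunit, Il12b, stood at 186 and 303 on its brighter probe set and at 62.2 and 225 on the other. Il10 was under the floor untreated and at 70.2 with AdOVA, and Il1rn, the interleukin 1 antagonist, was 6722 and 7000. Of 20 cytokine receptors, 4 were higher (20%, beside 4.53% of all genes) and none lower: Il1r2, a decoy receptor (269 and 747), Il15ra (188 and 515), Il1r1 (224 and 486) and Il13ra1 (319 and 664). The other 4 probe sets of Il13ra1 read 94.1 to 294 untreated and 120 to 569 with AdOVA.

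In the NF-kB pathway the calls fell on feedback and adaptor genes, and no subunit was called. Of 24 measured subunits, inhibitors and kinases 4 were called higher (16.7%, beside 4.53% of all genes) and 0 lower. These were Tnfaip3, encoding the ubiquitin-editing inhibitor A20 (162 and 512), Traf1 (243 and 652), Nfkbiz (286 and 617) and Birc3 (1143 and 2293). The subunit genes Rela (550 and 646), Relb (91.0 and 109), Rel (81.2 and 112) and Nfkb2 (201 and 127) were within 2-fold. Nfkbia, which encodes IkBa, was bright at 10622 and 16336. Peli1, a ubiquitin ligase of Toll-like receptor signalling, stood at 231 and 1360. Of 16 TNF ligands and receptors, 3 were higher (18.75%) and 1 lower (6.25%). The higher ones included Tnfsf9, the ligand of 4-1BB (105 and 283), and Tnfsf13b, the B-cell factor BAFF (116 and 279). Tnfsf14 was at least 2.35-fold lower, from 126 to under the floor.

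Of 20 DC maturation and costimulation genes, 6 were higher and 0 lower, with a median log2 difference of 0.39. Besides Ccr7 and Il15ra these were Cd200 (232 and 652), the inhibitory ligand gene Cd274 (3758 and 8949), Slamf1 (188 and 390) and the costimulator Cd86 (564 and 1155). Cd40 (79.3 and 143) and Cd80 (150 and 243) were within 2-fold, as were Cd83 (350 and 331) and Fscn1 (623 and 641), 2 genes known to mark mature DC. With equal medians 3 of the 20 were called. The enzymes of inflammatory mediators called higher were Ptgs2, the inducible cyclooxygenase, at 408 and 2379, Ptges, the prostaglandin E synthase, at 479 and 1153, Nos2, the inducible nitric oxide synthase, at 151 and 640, and Acod1, which makes itaconate, at 4575 and 11004. In the pair with TNFa, Nos2 stood at 233 and 3444.

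**Figure D3:**
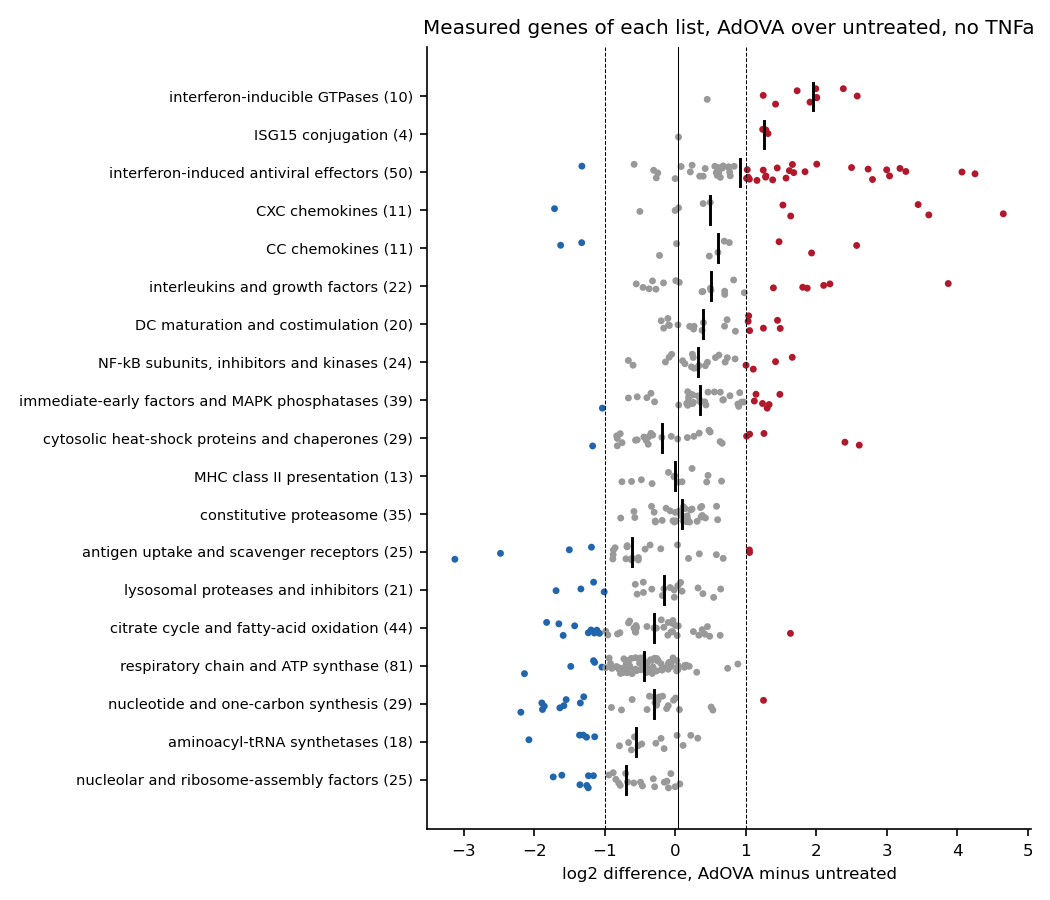
Log2 difference (x axis, AdOVA minus untreated) of every measured gene of 19 lists, 1 point per gene, with the list's number of genes in brackets, a short bar at its median, dashed lines at 2-fold and a solid line at the median of all genes. The 10 GTPases have the highest median, 1.95, and the 25 nucleolar factors the lowest, -0.70.

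Stress genes were mixed. The inducible HSP70 genes Hspa1b and Hspa1a stood at 115 and 700 and at 83.4 and 443, and as near-identical copies they may share signal. The other probe sets of Hspa1b stood at under the floor and 258, and at 56.6 and 614. Hspa4l (315 and 755), Dnajb4 (178 and 370) and Hspb1 (157 and 316) completed the 5 of 29 heat-shock and chaperone genes that were higher. The list's median log2 difference was -0.19, and the cytosolic chaperonin subunit gene Cct2 was lower at 1197 and 532. Under equal medians, a pseudocount in place of the floor, or a mean over probe sets, 3 of the 29 were higher. Of 30 genes of endoplasmic reticulum chaperones, the unfolded protein response and related translation control, 3 were higher (10%) and 1 lower (3.33%). The median log2 difference was -0.37, and 21 of the 30 were below 0. With equal medians or the pseudocount, 1 was higher. Ddit4, an inhibitor of mTORC1, stood at 453 and 1236, Trib3 at 125 and 256 and Ppp1r15a, which restores translation after stress, at 203 and 420. Ern1, the sensor IRE1, was 144 and 60.3 on one probe set and 80.1 and 109 on another. Of 27 oxidative-stress genes 2 were higher (7.41%, beside 4.53% of all genes) and 1 lower, and the median log2 difference was 0.03. Hmox1, heme oxygenase, was 2364 and 5346 and Sqstm1, the autophagy receptor p62, 1795 and 3766. The lower member, Gsto1, stood at 1537 and 516, and at 821 and 674 on another probe set. With equal medians or quantile normalization, 1 of the 27 was higher.

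Of 39 immediate-early factors and MAP kinase phosphatases 6 were higher (15.4%, beside 4.53% of all genes) and 1 lower (2.56%, beside 4.13%). The 6 were Dusp16 (312 and 873), Dusp1 (567 and 1427), Junb (275 and 681), Atf3 (721 and 1702), the mRNA-decay factor gene Zfp36 (333 and 738) and Maff (66.7 and 145). Myc, a driver of growth and ribosome production, was lower at 126 and 61.7. Fos (740 and 846), Jun (294 and 469) and Egr1 (244 and 154) were within 2-fold. Among 27 genes of the Bcl-2 family, caspases and death regulators, 5 were higher (18.5%) and 0 lower, namely Casp4 (480 and 1887), Bnip3 (1797 and 5798), Casp1 (626 and 1435), Bcl2 (65.2 and 148) and Cflar (548 and 1099). Casp1 and Casp4 encode inflammatory caspases, which act in pyroptosis. Of 19 p53 targets 2 were higher (10.5%) and 0 lower, and the median log2 difference was 0. The higher ones were Cdkn1a, the cell-cycle inhibitor p21, at 1518 and 3270 and Pmaip1, the death factor NOXA, at 249 and 566.

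Gja1, which encodes the gap-junction protein connexin 43, was among the largest differences outside the immune lists. Its brightest probe set stood at 84.8 and 1182, and the other 5 were at 20.4 to 60.6 untreated and 84.4 to 505 with AdOVA. All 6 of its probe sets were thus brighter with AdOVA. The other genes named for the largest bounds were dim, with AdOVA signals of 279 for Cldn3, a tight-junction protein, 229 for the nuclear receptor Nr5a1, 228 for Pcp4, 180 for Hdgfl3, 174 for Sema6a, 173 for Cplx2 and 171 for Nlgn2. On the TNFa array Cldn3 was at 78.1, Hdgfl3 at 120 and Cplx2 at 135, above the floor without any virus.

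Genes called lower on the AdOVA array covered uptake, the cell surface, matrix, mitochondria and growth. S100a4, a calcium-binding protein of motile cells, stood at 1414 untreated and 240 with AdOVA, and at 753 and 127 in the pair with TNFa. On the AdIkBa-SR arrays it read 1315 and 1219. It was therefore low on both AdOVA arrays and within 2-fold of untreated on the other 3. Fn1, the matrix protein fibronectin, stood at 1879 and 361 on its brighter probe set and at 145 and 63.6 on the other. Trem2, a lipid-sensing receptor of macrophages and DC, stood at 466 and under the floor, at least 8.72-fold lower, but its second and dimmer probe set read 72.9 and 118, the other way.

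Among the other genes named for the largest lower differences were Selenoh, a selenoprotein of the nucleus (269 and 57.9), Pld4, an endosomal nuclease (283 and 67.0), Ddb1, a subunit of a ubiquitin ligase (377 and 95.7), and Trp53inp2, an autophagy factor (198 and 56.2). Ethe1, which detoxifies sulfide in mitochondria, and Fam98a stood at 239 and 222 untreated and under the floor with AdOVA. Of 27 matrix proteins and proteases 3 were lower (11.1%, beside 4.13% of all genes) and 1 higher (3.70%, beside 4.53%). The lower ones besides Fn1 were Ccn3, a secreted matricellular protein (736 and 236), and Mmp2, a gelatinase (311 and 155), and the higher one was Mmp13, a collagenase (777 and 2688). Of 9 S100 genes 2 were lower, S100a4 and S100a1 (449 and 173), while S100a8 (8278 and 6825) and S100a9 (8197 and 7660) were within 2-fold.

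Of 25 antigen uptake and scavenger receptors 4 were lower and 2 higher, 18 had a log2 difference below 0, and the median was -0.61. Besides Trem2, the lower members were Cd93, a receptor in the clearance of dying cells (650 and 117, and 102 and 55.5 on another probe set), Itgax, which encodes the DC integrin CD11c (699 and 247), and Mertk, a receptor for apoptotic cells (345 and 152). The 2 higher members were the Fc receptor genes Fcgr1 (659 and 1367) and Fcgr4 (440 and 913). They were within 2-fold once the arrays were scaled to equal medians. The mannose receptor gene Mrc1 (102 and 80.0) and the scavenger receptor gene Msr1 (1792 and 1334) were within 2-fold. Of 21 lysosomal genes 4 were lower and 0 higher: Hexa (2262 and 702) and Gusb (575 and 258), which break down sugar chains, the lipase gene Lipa (1792 and 709) and the protease gene Lgmn (974 and 485). The cathepsin genes Ctsb, Ctsd, Ctsl and Ctss were each within 2-fold and bright on both arrays.

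Most mitochondrial genes had log2 differences below 0, few of them as large as 2-fold. Of 81 measured subunits of the respiratory chain and ATP synthase, 5 were called lower and 0 higher, or 6.17% beside 4.13% of all genes, and 70 had a log2 difference below 0. The median was -0.44. Atp5b, a catalytic subunit of ATP synthase, had the largest difference, at 1749 and 398, and read 1861 and 1098 in the pair with TNFa. The others were Uqcr11 (425 and 152), Atp5g1 (555 and 249), Ndufb10 (356 and 161) and Cox4i1 (2320 and 1129). With equal medians 8 of the 81 were lower. On a list of genes of the citrate cycle and fatty-acid oxidation 9 of 44 were lower and 1 higher. Lower members were Hadh at 767 and 244 (171 and 113 on another probe set), Acadvl at 238 and 79.0, Idh3a at 333 and 124, Acat1 at 256 and 109 and citrate synthase, Cs, at 975 and 452. Also listed and lower was Idh1, at 1543 and 436, which encodes an isocitrate dehydrogenase of the cytosol and peroxisomes rather than of mitochondria. The carnitine carrier gene Slc25a20 was the higher one, at 123 and 382 (99.9 and 151 on another probe set), and read 180 and 191 in the pair with TNFa. Of 37 mitochondrial carriers, import factors and chaperones 4 were lower. Slc25a5, the adenine nucleotide carrier, stood at 2882 and 834, and all 8 of its probe sets were dimmer with AdOVA.

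In glycolysis, 2 of 22 genes were higher (9.09%, beside 4.53% of all genes) and 1 lower (4.55%, beside 4.13%), and the median log2 difference was 0.41. The glucose transporter gene Slc2a3 stood at 118 and 338 and the glycolytic activator gene Pfkfb3 at 235 and 613. Hk2 (1052 and 1929) and Slc2a1 (2541 and 4600) were within 2-fold without TNFa. In the pair with TNFa, Slc2a1 stood at 2361 and 6033, past 2-fold, and Hk2 at 1168 and 2332, just short of it. Ldhb, the lactate dehydrogenase chain of oxidative tissues, was lower at 227 and 108, while Ldha was 7594 and 11396.

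Among genes for making ribosomes and proteins, nearly every call was lower. Of 25 nucleolar and ribosome-assembly factors, 7 were lower and 0 higher, 23 had a log2 difference below 0, and the median was -0.70, though with a higher floor 4 were called. They were Nop56, a core protein of nucleolar RNA particles (228 and 68.7, and 98.9 and 76.8 on another probe set), Nol12 (163 and under the floor), Nhp2 (328 and 129), Bysl (148 and 62.2), the abundant nucleolar protein gene Npm1 (1189 and 506), Rrs1 (125 and under the floor) and Polr1a, the largest subunit of RNA polymerase I (130 and 58.3, but 80.2 and 108 on another probe set). Of 18 aminoacyl-tRNA synthetases, which charge tRNAs, 5 were lower and 0 higher. Farsb stood at 225 and under the floor, with 157 and under the floor and 118 and 59.4 on its other probe sets, Kars at 268 and 105, Iars at 255 and 103, Yars at 128 and under the floor and Eprs at 311 and 141. Eef1e1, a scaffold of the synthetase complex, had 241 and 71.9. Of 43 translation factors 6 were lower, among them Eif4a1 (2704 and 1161), Eif5a (4275 and 1894) and Eef2 (1929 and 912). Abce1, which recycles ribosomes, stood at 380 and 89.6. Cytosolic ribosomal protein genes had a median log2 difference of -0.37. Of 44 such genes 2 were lower and 1 higher. The share lower, 4.55%, was near the 4.13% of all genes.

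Calls in nucleotide synthesis and the cell cycle were mostly lower. Of 29 nucleotide and one-carbon genes, 9 were lower and 1 higher, with Nme1 at 417 and 115, Nme2 at 2455 and 966, Gcsh, of the glycine cleavage system, at 398 and 108, and Paics, of purine synthesis, at 449 and 183. For Phgdh, the first enzyme of serine synthesis, Dck, Rrm2, Adk and Mthfd1 the AdOVA array was under the floor, and untreated signals were 244, 198, 166, 160 and 156. Other probe sets differed less: those of Dck stood at 106 and 71.0 and at under the floor and 67.0, those of Rrm2 at 118 and 64.5 untreated and under the floor with AdOVA, and that of Adk at 73.2 and under the floor. Counting only genes above the floor on both arrays, 4 were lower. Among 28 replication genes, Top2a, which untangles DNA, stood at 226 and 56.2 and Fen1 at 220 and 71.6. Among 32 genes of mitosis and cell-cycle kinases 6 were lower and 1 higher, with Cdk1 at 216 and 89.3 and Cks1b at 190 and under the floor, and 3 were lower when both arrays had to be above the floor.

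None of 13 measured MHC class II presentation genes was called, with H2-Aa at 1173 and 1169, H2-Eb1 at 602 and 623, and the invariant chain gene Cd74 at 2558 and 1515. Of 18 genes of MHC class I loading and the immunoproteasome 1 was called higher (5.56%, beside 4.53% of all genes), Tapbpl, at 119 and 264, with Psmb9 at 804 and 1549 and Tap1 at 438 and 873 just within 2-fold. No call was made among 35 constitutive proteasome genes, 9 complement genes or 23 genes of cholesterol synthesis and uptake. Over all genes 4.53% were higher and 4.13% lower, and whether these lists differed from those shares was not tested. Of 14 adenovirus receptors and entry factors 1 was higher and 2 lower. Cxadr, the coxsackievirus and adenovirus receptor of the mouse, read 130 untreated and 121 with AdOVA. Whether that probe set also reads the transgene of these mice is not known. The integrin gene Itgav, whose integrins bind the penton base of adenovirus, stood at 977 and 2463, while its partner Itgb5 stood at 430 and 201. The nuclear pore gene Nup153 was lower, at 354 and 129.

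The pair with TNFa shares no array with the pair without it, and gave 933 probe sets higher with AdOVA+TNFa (6.26%) and 738 lower (4.95%). The recorded hybridization entries of its arrays differed. Of the 658 probe sets higher without TNFa, 285 were also higher with it, which is 43.3% of the first list (exact 95% binomial interval 39.5% to 47.2%, for counting error only) and 30.5% of the other. Of the 665 lower ones 204 were also lower with TNFa, 30.7% of the first list (27.2% to 34.3%) and 27.6% of the other. Both intervals take probe sets as independent, although some genes have several. The share grew with the size of the difference: 33.9% of higher probe sets at 2-fold to 3-fold, 60.0% at 3-fold to 4-fold, 90.9% at 4-fold to 8-fold and all 19 above 8-fold. For lower probe sets it was 27.5%, 39.3% and 70.8% in the first 3 of these ranges. It also differed with brightness. Of higher probe sets it was 25.6% with a mean signal under 100, 64.6% at 500 to 2000 and 58.0% above 2000. Of lower ones it was 20.1%, 49.4% and 63.6% in these ranges, the last being 7 of 11 probe sets. Lower calls made up 2.81% of measured probe sets with a mean signal under 100, 7.06% at 100 to 200 and 4.74% at 200 to 500.

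By list, 20 of the 25 higher antiviral effectors, all 9 of the higher GTPases and 3 of 3 ISG15 pathway genes were also higher with TNFa, where 6.27% of all genes were called higher and 4.45% lower. It was 4 of 5 for CXC chemokines, 4 of 6 for maturation genes and for immediate-early factors, 2 of 4 for the NF-kB pathway, 2 of 5 for heat-shock genes, 1 of 3 for CC chemokines and 1 of 5 for death regulators. For the interleukins it was 2 of 6, Il6 and Il1a. Il1b stood at 6636 with TNFa and 12233 with AdOVA+TNFa, and Tnf at 318 and 583. Among the lower groups, 8 of 9 nucleotide genes, 5 of 9 genes of the citrate cycle and fatty-acid oxidation, 3 of 4 uptake receptors, 3 of 7 nucleolar factors, 2 of 5 tRNA synthetases and 2 of 5 respiratory-chain genes were also lower. It was 1 of 6 for translation factors and for mitosis, 1 of 4 for lysosomal genes and for mitochondrial carriers, and 0 of 4 for mitochondrial ribosomal proteins. These are overlaps of called genes only. Counted by itself, the pair with TNFa had 22 of 81 respiratory-chain genes lower and 1 higher (median log2 difference -0.70). Cytosolic ribosomal proteins had 13 of 44 lower and 0 higher (-0.75), and mitochondrial ones 7 of 75 lower and 1 higher (-0.44). The tRNA synthetases had 2 of 18 lower and mitosis genes 1 of 32. Hadh had signals of 663 and 70.2 and Fen1 561 and under the floor in that pair, both further apart than without TNFa.

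**Figure D4:**
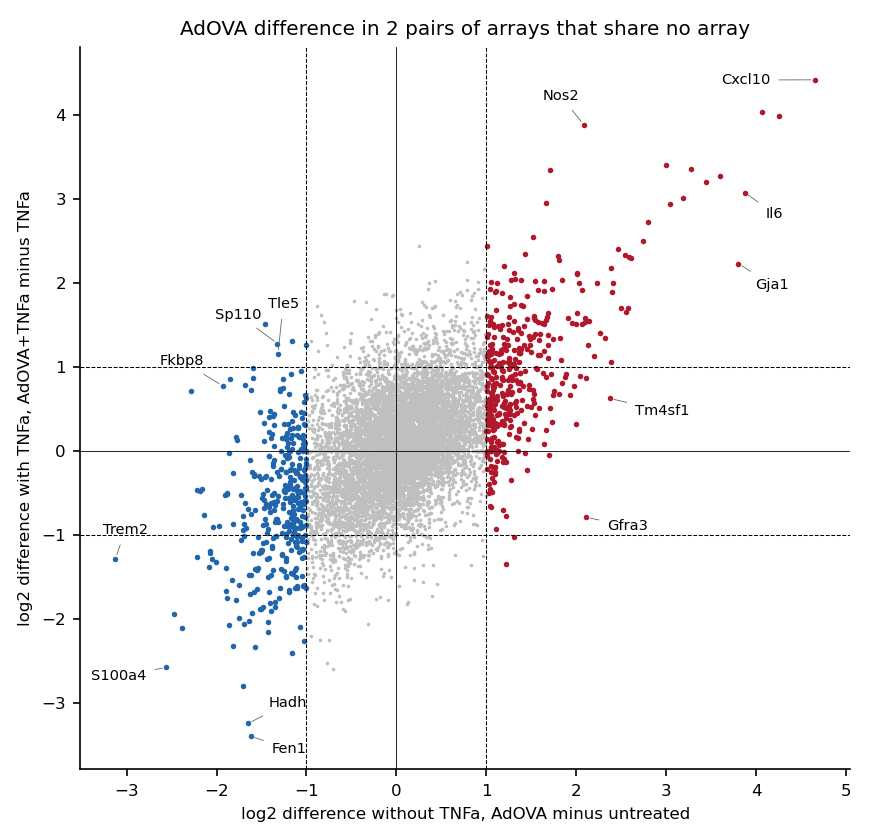
Log2 difference of each of 8934 genes without TNFa (x axis, AdOVA minus untreated) and with TNFa (y axis, AdOVA+TNFa minus TNFa), from arrays that the pairs do not share, with dashed lines at 2-fold, red for genes higher and blue for genes lower without TNFa. Cxcl10 lies at 4.65 and 4.42, S100a4 at -2.56 and -2.57, and Sp110 at -1.32 and 1.28.

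Some genes differed in 1 pair and not in the other. Of the 8934 genes, 2 were higher without and lower with TNFa, and 5 were lower without and higher with it. Tm4sf1, a tetraspanin-like membrane protein, stood at 292 and 1513 without TNFa and at 441 and 682 with it. Gfra3, a receptor of the GDNF family, stood at 76.6 and 331 without TNFa and at 280 and 162 with it. Dnajb4, a co-chaperone, read 178 on the AdOVA+TNFa array, its untreated level. Ercc6l2, Hibch and Noa1 were also higher without TNFa, at 131 and 283, 72.7 and 169, and 55.5 and 114, and stood the other way with it. Another probe set of Ercc6l2 stood at under the floor and 53.9. Among the lower genes, Fkbp8, an immunophilin of mitochondria, had 218 and 57.0, then 175 and 300, and Abhd12, a lipid hydrolase, 460 and 128, then 211 and 382. Myo18a and the deacetylase gene Sirt2 had 189 and 58.8, and 276 and 89.6, without TNFa and were likewise higher with AdOVA in the pair with TNFa. The genes lower to under the floor without TNFa could be well above it with TNFa, as for Rab15 (260, then 408 with AdOVA+TNFa), P2ry6 (249, then 282) and Phgdh (244, then 166). None of these differences between the pairs was tested, since each rests on 4 single arrays.

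Probe sets of one gene did not always agree. Of the 405 higher genes, 115 have several measured probe sets, and all of these had the same sign in 99 (86.1%) and were at least 2-fold apart in 44 (38.3%). Of the 369 lower genes 167 have several, with the same sign in 119 (71.3%) and all at least 2-fold apart in 33 (19.8%). Glul, glutamine synthetase, stood at 411 and 124 on the brighter probe set and 151 and 183 on the other, and Phgdh had 3 probe sets that were dimmer with AdOVA and 1 at 114 and 121. Sla, an adaptor that dampens receptor signalling, was under the floor with AdOVA on both.

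Promoter windows of 300 bases, from 250 before to 50 after the start, were matched by Entrez identifier to 7256 of the 8934 genes, 328 of them higher and 302 lower. The ISRE letters were found in 10.1% of windows of higher genes (33 genes), 3.31% of lower genes (10) and 3.93% of all measured genes, and in 3.99% of all 27025 windows. The NF-kB letters were found in 11.9% of higher genes (39), 8.61% of lower genes (26) and 7.39% of all measured genes. At 3-fold, the shares among higher genes were 21.7% for ISRE and 20.3% for NF-kB. Both motifs were in the windows of Cxcl10, Gbp2, Tm4sf1, Bst2, Kcnab1 and Rnase1, the last pair being named only for this. The windows of Oasl1 and Cmpk2 held no ISRE match in these letters. The NRF1 letters (GCGCA, any base, GCGC) were found in 2.74% of higher, 11.9% of lower and 11.3% of all measured genes, and the E2F letters TTTNGCGC in 1.52%, 3.97% and 2.85%. The CRE letters TGACGTCA were found in 2.74%, 1.99% and 3.27%, and the heat-shock element (GAA, any 2 bases, TTC, any 2 bases, GAA) in 0.305%, 0.662% and 0.579%. Base composition differed alongside: the median window held 56.5% G and C and 13 CpG in higher genes, 59.3% and 20 in lower genes and 60.3% and 20 in all measured genes. Its part in the motif shares was not tested.

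**Figure D5:**
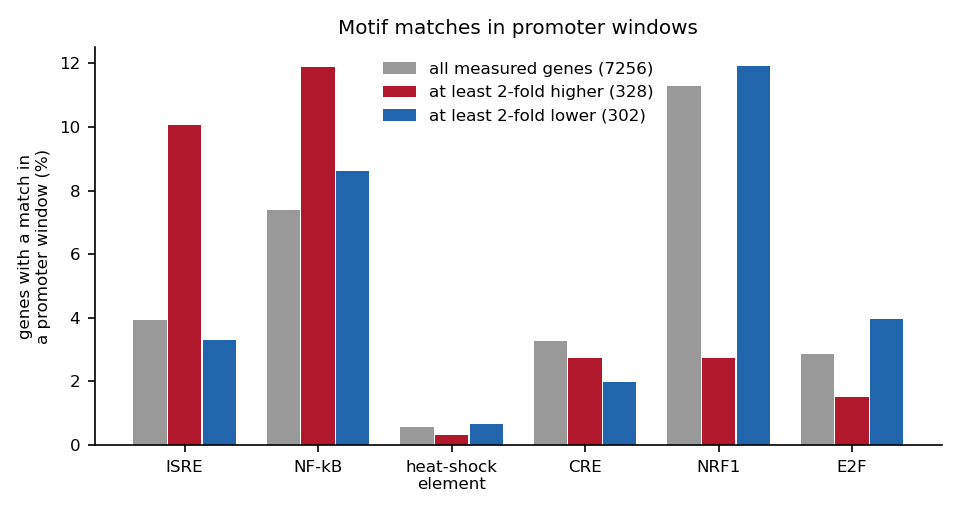
Share of promoter windows (y axis, percent) that hold each of 6 motifs on either strand, for all 7256 measured genes with a window (grey), the 328 higher genes (red) and the 302 lower genes (blue). The red bars exceed the grey ones for ISRE (10.1% against 3.93%) and NF-kB (11.9% against 7.39%) and are lower for NRF1 (2.74% against 11.3%).

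The labelled cell type was checked on defining genes. Of 15 DC-defining genes on the array 13 were above the floor on each array of the pair, and Dpp4 was under it on all 6. Their summed signal was 6676 untreated and 5536 with AdOVA. Monocyte and macrophage genes were also bright, with 11 and 10 of 12 above the floor, summed signals of 52950 and 58860 and Cd163 under the floor on all arrays. Of 11 measured, 1 was higher and 2 were lower. The median log2 difference was -0.10, and -0.61 when all probe sets of a gene were averaged. Lyz1 stood at 14356 and 14438 on its brightest probe set, but at 9171 and 2019, and at 80.5 and 101, on the others. Of 7 genes of plasmacytoid DC, which are known as strong interferon producers, 4 were above the floor on both arrays, with Ccr9, Klk1 and Ly6d under it on all 6. Their summed signal was 2821 and 5633, most of it from Bst2 (2519 and 5081), which is also on the antiviral list, and 2 of the 4 were called higher, Bst2 and Tcf4 (116 and 240). Other probe sets of Tcf4 ranged from 123 and 315 to 83.3 and 105. The part of plasmacytoid DC in the interferon-gene differences was not tested. All 13 neutrophil genes were above the floor on both arrays, with sums of 44272 and 38642, none at 2-fold. Of 10 T-cell genes 3 and 4 were above the floor, with Cd3d, Cd3e, Cd3g, Cd4, Cd2 and Cd8b1 under it on all arrays. Of 10 genes of stromal and endothelial cells 3 were above the floor untreated and 8 with AdOVA, with sums of 816 and 1205, and Col3a1 and Pdgfrb under the floor on all arrays. Over all probe sets 59.2% and 62.3% were above the floor on these arrays. In the pair with TNFa 3 and 5 of the 10 were above it. None of the 5 measured genes of this list was called at 2-fold in either pair. Such a gain without TNFa was not particular to this list. NK-cell genes had 3 and 6 of 8 above the floor, erythroid genes 3 and 6 of 7 and B-cell genes 4 and 6 of 10. For eosinophil, megakaryocyte and progenitor genes the number was the same on both arrays. Hdc, which makes histamine and was listed for mast cells and basophils, stood at 122 and 605, while the sum of that list was 1995 and 2086. The part of other cell types in the differences above was not tested.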

How the data were processed

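RNA of each group was measured on 1 Affymetrix MOE430A array. The authors deposited 1 microarray intensity per probe set on a linear scale, for which the submitters' processing notes name MAS5, its version not given in the sources used here. Every array has a trimmed mean signal of 200.1, so a signal is relative to the rest of its array. Hybridization dates and wash settings are per the file headers. Symbols came from the platform annotation, checked through Entrez identifiers (20351 of 20380 probe sets with 1 symbol matched RefSeq, and 0 symbols differed); 691 probe sets with several symbols and 1555 with none named no gene.

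Signals were set to the floor, log2 differences taken and 2-fold differences called, with Python 3.11.15, numpy 2.4.6 and pandas 2.3.3. The counting steps were tested on simulated data. With 1 array per group no model was fitted. Named genes are the 20 per direction with the largest differences above the floor, the 8 per direction with the largest bounds, the 6 per direction that differ most from the pair with TNFa, and members of the gene lists. For those that appear in the text, further probe sets are described where they disagree by more than 1 log2 unit. The comparison, members and lists were chosen with earlier results of these data known. Alternatives changed the floor, scaling, filter, fold, probe set and promoter stretch.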

Additional observations from a re-analysis of the deposited data

Results flagged for a closer look

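In 2 of the named genes the AdOVA array was lower than its partner without TNFa and higher with TNFa, at 2-fold or more each time. All 4 arrays were above the floor for both. Over all 8934 genes, 5 had this pattern. For Sp110, a nuclear body gene induced by interferon, the log2 difference was -1.32 without TNFa (179 and 71.5) and 1.28 with TNFa (83.8 and 204). On the AdIkBa-SR and AdIkBa-SR+TNFa arrays it read 138 and 146. Its other probe sets did not show the lower value without TNFa, at under the floor and 81.5, and at 82.2 and 97.3. For Tle5, a transcriptional corepressor read by 1 probe set, the log2 difference was -1.32 without TNFa (225 and 90.4) and 1.16 with TNFa (168 and 376), and AdIkBa-SR+TNFa read 774. The difference between the pairs was not tested for either gene, as each value is a single array.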

How the results depend on the processing

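The counts of probe sets follow the fold and the floor. At 3-fold, 144 were higher and 109 lower, and at 1.5-fold 2159 and 2083. With the floor at the 30th percentile 1070 were higher. The share of higher probe sets that were also higher with TNFa was 34.5% at that floor and 51.0% with the floor at the 50th percentile. It was 54.9% when 3-fold was required in both pairs, unlike the shares by size of difference above, which required 2-fold with TNFa. The share of lower ones was 34.5% at the 50th percentile, 27.1% with a pseudocount of 16 in place of the floor and 40.0% with equal medians. It was 43.4% when 1.5-fold was required in both pairs. Among genes higher at 3-fold, the motif shares were 21.7% for ISRE and 20.3% for NF-kB. In the other alternatives, including quantile normalization and no filter on low values, these counts stayed within 1.5 times and these shares within their intervals. Read only from probe sets above the floor on both arrays, Trem2 had a log2 difference of 0.69 and Phgdh of 0.081, the opposite direction, because other probe sets were then read. Of 247 genes checked, 16 ended within 2-fold under equal medians, 13 with the higher floor, 16 with the pseudocount, 6 under quantile normalization and 24 when all probe sets of a gene were averaged, where Sp110 had -0.16. Of 120 list counts, equal medians moved 23 by over 1.5 times, the pseudocount 19, the lower floor 15, the mean over probe sets 14, the higher floor 10, and quantile normalization and both arrays above the floor 9 each. No paired analysis was possible because each group has 1 array. Single arrays give no measure of spread between cultures, and dim signals are the least precise: 223 of the 658 higher probe sets had a mean signal under 100.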
